A study of Arabidopsis thaliana with 12 samples.

Results

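Trichostatin A (TSA) and 5-aza-2'-deoxycytidine (5-AC) were given to Arabidopsis seedlings of one accession, Ws, and their transcript levels were set directly against each other, with no untreated array in the contrast. The 6 arrays of this comparison were chosen by their treatment labels alone, 3 TSA arrays (2.5 mg/L) and 3 5-AC arrays (20 mg/L), out of 12 arrays in the series. The remaining arrays, 3 from untreated Ws and 3 labelled ddm1, a mutant of the chromatin remodeller DDM1, do not enter the contrast. They share in the estimate of the spread behind each test, and they give the levels, and for some genes the tests against Ws, that show on which side a difference lies. All seedlings grew as whole plants in liquid 0.5X MS medium with 1% sucrose at 21 °C under continuous light. Both drugs were dissolved in DMSO and added after 24 hours, the Ws and ddm1 seedlings received DMSO alone, and the medium with its supplements was replaced after 5 days. The labels put the harvest at 10 days, while the methods name a later day. RNA came from whole seedlings, so that fewer cells of a type and less RNA per cell cannot be told apart in any value below. The 2 drugs were each used at 1 dose, and neither dose nor drug can be separated from the other.

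TSA blocks histone deacetylases, the enzymes that remove acetyl groups from histone tails, and the acetylated histones that then accumulate are a mark of open chromatin. 5-AC is a cytosine analogue that is built into DNA during replication and traps DNA methyltransferases there, so that methylation is lost as cells divide and protein is left bound to the DNA. In Arabidopsis, DNA methylation holds transposable elements and a small number of genes silent, and loss of DDM1 or of methylation releases them. Bulky protein adducts on DNA can set off the DNA damage response, in which the plant transcription factor SOG1 switches on cell cycle inhibitors and repair genes.

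Each value below is a log2 expression value of one probe set, the group of short oligonucleotides that reports one transcript, and values are listed in the order of replicates 1, 2 and 3. Differences are TSA minus 5-AC, so that a positive value means a higher level after TSA, and SE is the standard error from limma, which was fitted to all 12 arrays. A probe set was called when its Benjamini-Hochberg adjusted p over all 22746 probe sets tested was under 0.05. The series describes the 3 replicates of a group as biological. Gene names came from the array's annotation for 13513 probe sets. A further 1711 probe sets could be named only through the study's own lists of genes that changed after 5-AC or in ddm1. These genes are called study-listed below: they were selected on the same 5-AC arrays, so the direction of their difference is not independent evidence.

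The seedlings of the 2 treatments differed over a large share of the genome. Of 22746 probe sets, 9018 were called, or 39.6%, with 4077 higher after TSA (17.9%) and 4941 higher after 5-AC (21.7%). The differences were often large: 2693 called probe sets were higher after TSA by at least 1 log2 and 2583 were higher after 5-AC by as much, and 182 and 180 differed by at least 4 log2. Both directions were thus nearly balanced, with 45.2% of the calls on the TSA side and a median difference of 0.03 over all probe sets. Centring each array on the reference genes SAND, UBC21 and TIP41L moved that median to 0.22 and the TSA side to 71.0% of the calls, with 9903 probe sets higher after TSA and 4053 higher after 5-AC. TIP41L (-0.94) and UBC21 (0.43) were themselves called between the drugs, so this shift carries their own differences. In 12392 probe sets, or 54.5%, all TSA arrays lay on one side of all 5-AC arrays (above them in 30.5% and below them in 24.0%), and 8757 of the called probe sets were among these. With only the 6 TSA and 5-AC arrays in the fit, 7052 of the 9018 calls were kept and 1966 were lost.

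The called differences lay mostly with the 5-AC seedlings. The mean of the untreated Ws arrays was nearer to TSA than to 5-AC in 7625 of the 9018 called probe sets, or 84.6%, against 62.9% of all probe sets. Correlations over all probe sets gave the same order as a description: they were 0.977 to 0.988 among TSA arrays, 0.976 to 0.988 among 5-AC arrays, and 0.856 to 0.907 between the groups. TSA arrays correlated with the Ws arrays at 0.948 to 0.974 and 5-AC arrays at 0.845 to 0.89. Against Ws, 1052 probe sets were called higher after TSA (4.62%) and 1092 lower (4.80%), while 5256 (23.1%) and 4371 (19.2%) were called after 5-AC, all from the same limma fit and with the same Ws arrays.

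**Figure D1:**
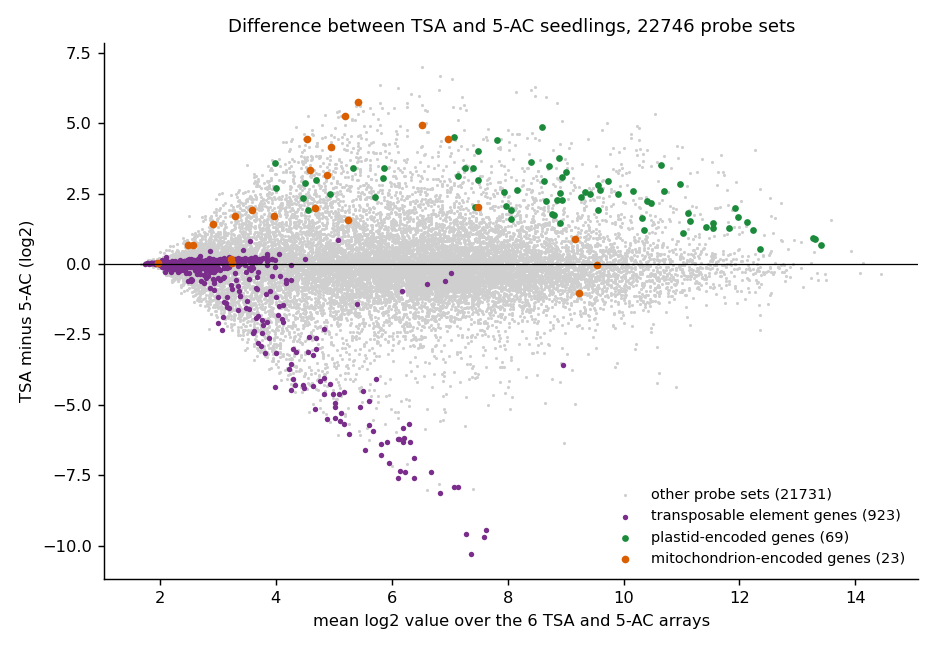
Difference between TSA and 5-AC (vertical axis, TSA minus 5-AC, log2) against the mean log2 value over the 6 arrays (horizontal axis), 1 point for each of 22746 probe sets. Plastid-encoded genes (green) lie above 0, mitochondrion-encoded genes (orange) mostly above 0, and the transposable element genes that leave the line (purple) run down to -10.31.

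One 5-AC array stood nearer to the TSA arrays than the others did. The mean correlation of 5-AC replicate 3 with the TSA arrays was 0.899, against 0.873 and 0.871 for replicates 1 and 2, and with the Ws arrays it was 0.883 against 0.853 and 0.854. Of the 3 platform-named seed maturation genes, a tissue that a seedling should lack, PAP85, M17 and M10 read 5.06, 5.32 and 3.45 in that array and between 2.36 and 2.83 in the other 5 drug arrays. Such values were not particular to it in the series: PAP85 read 4.73 in Ws replicate 2 and 4.26 and 6.79 in replicates 2 and 3 of the arrays labelled ddm1, and M17 read 4.28 and 7.38 in ddm1 replicates 1 and 3. Of 4 flower and pollen markers, A9 and MGH3 did not exceed 2.58 in any of the 6 arrays, while SEP3 and AG were higher after 5-AC, as given with their values further on. Whether these 3 values stand for seed tissue, and their part in the other values of 5-AC replicate 3, was not tested. The DDM1 probe set itself averaged 7.71 in the arrays labelled ddm1 and 4.89 in Ws, so the label of those arrays could not be checked by a low level of the gene.

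Transposable elements made up the top of the 5-AC side. AT2G12300 read 2.61, 1.97 and 2.06 after TSA and 12.34, 12.64 and 12.56 after 5-AC, a difference of -10.31 (SE 0.79, limma adjusted p = 1.2e-05). Its mean was 3.99 in Ws, where the arrays were uneven (2.03, 6.10 and 3.85), and 12.79 in the arrays labelled ddm1. Of the 10 lowest differences among platform-named, non-overlapping probe sets, 9 were transposable element genes, and AT2G12240, AT3G30396 and AT2G10640 followed AT2G12300 at -9.70, -9.59 and -9.43. For AT2G12240, AT3G30396 and AT2G10640 Ws replicate 2 was also the highest Ws array, at 6.02, 5.61 and 6.48. AT2G13160 and AT3G31955, both at -7.90, belong to the En/Spm-related DNA transposons, which move by excision and reinsertion. All 9 probe sets match more than one element, so each may report several copies.

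Over the genome, a minority of the transposable element probe sets were called. Of 923 probe sets for transposable element genes, 124 were higher after 5-AC, 13 were higher after TSA and 786 were not called. The balance of these counts depended on the scaling: with the arrays centred on the 3 reference genes 587 were higher after TSA and 113 after 5-AC, and limma with trend and robust called 76 higher after TSA. Of these reference genes, TIP41L itself was higher after 5-AC (-0.94) and UBC21 higher after TSA (0.43). Centring carries their own differences into every probe set, also those near the floor. The shares called without centring lay under those of the whole array (21.7% and 17.9%), and 442 of the 923 probe sets lay near the floor in both groups, that is, under the 25th percentile of every array. The size of the difference, however, was large, with 100 of the 124 at 1 log2 or more and 54 at 4 log2 or more. After TSA, 105 of these 124 lay within 0.5 log2 of the Ws mean, none was called above Ws and 3 were called below it. The ddm1 mean exceeded the 5-AC mean in 89 of the 124.

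Of 734 probe sets that match a single sequence, 44 were higher after 5-AC and 12 were higher after TSA. Most of the 734 differed little, with a median difference of 0.04, and without regard to the test every TSA array lay above every 5-AC array in 200 of them and below in 50. Over all 923 probe sets these numbers were 218 and 133, with a median of 0.03. Over the whole array the TSA arrays lay above in 30.5% of probe sets and below in 24.0%. The examples here were chosen after their values were seen. AT1G44060 read 3.19, 3.06 and 2.82 after TSA and 9.11, 9.46 and 9.48 after 5-AC (-6.33, SE 0.18, limma adjusted p = 3.8e-08), with 3.08 in Ws. AT3G47320 read 3.12, 2.93 and 2.97 against 9.43, 9.43 and 8.78, and its ddm1 mean was 11.37. In both genes the TSA arrays lay at the untreated level and the groups were far apart. AT4G05640, AT5G43800 and AT3G29650 differed by -6.05, -5.49 and -5.48 in the same way.

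Not every such element was also high in the arrays labelled ddm1. AT1G37060 read 8.01, 8.27 and 7.66 after 5-AC, 2.83, 2.90 and 3.0 after TSA, and 3.67 on average in ddm1. AT1G21220 read 4.67, 5.09 and 5.22 after 5-AC and 2.53, 2.55 and 2.57 after TSA, and its ddm1 mean of 2.48 equalled its Ws level of 2.52 to within 0.1 log2. The 13 transposable element probe sets higher after TSA were small by comparison, 11 of them at 0.35 or less, with AT1G64270 at 0.84 and AT3G21020 at 0.81 as the others. That count moved between 5 and 61 as single arrays were left out. Without TSA replicate 1 it was 61, without TSA replicate 3 it was 7, and without 5-AC replicate 2 or 3 it was 5. Of 66 transcribed pseudogenes, 5 were higher after 5-AC (21.7% of all probe sets) and 1 was higher after TSA (17.9%).

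Genes known to be silenced by methylation followed the elements. QQS, a regulator of starch content whose silent state depends on methylation of nearby repeats, read 3.12, 3.19 and 3.15 after TSA and 8.33, 8.07 and 8.44 after 5-AC (-5.13, SE 0.29, limma adjusted p = 2e-06). FWA, a homeodomain gene that delays flowering when its promoter repeats lose methylation, is study-listed and read 2.25, 2.18 and 2.15 against 7.52, 7.94 and 6.85 (-5.25). The TSA arrays of both lay within 0.5 log2 of the Ws means of 3.53 and 2.21, although QQS read 3.11, 4.36 and 3.11 in the Ws arrays. The ddm1 means differed between these genes: 8.53 for QQS, above all 3 5-AC arrays, and 4.2 for FWA, below all of them.

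**Figure D2:**
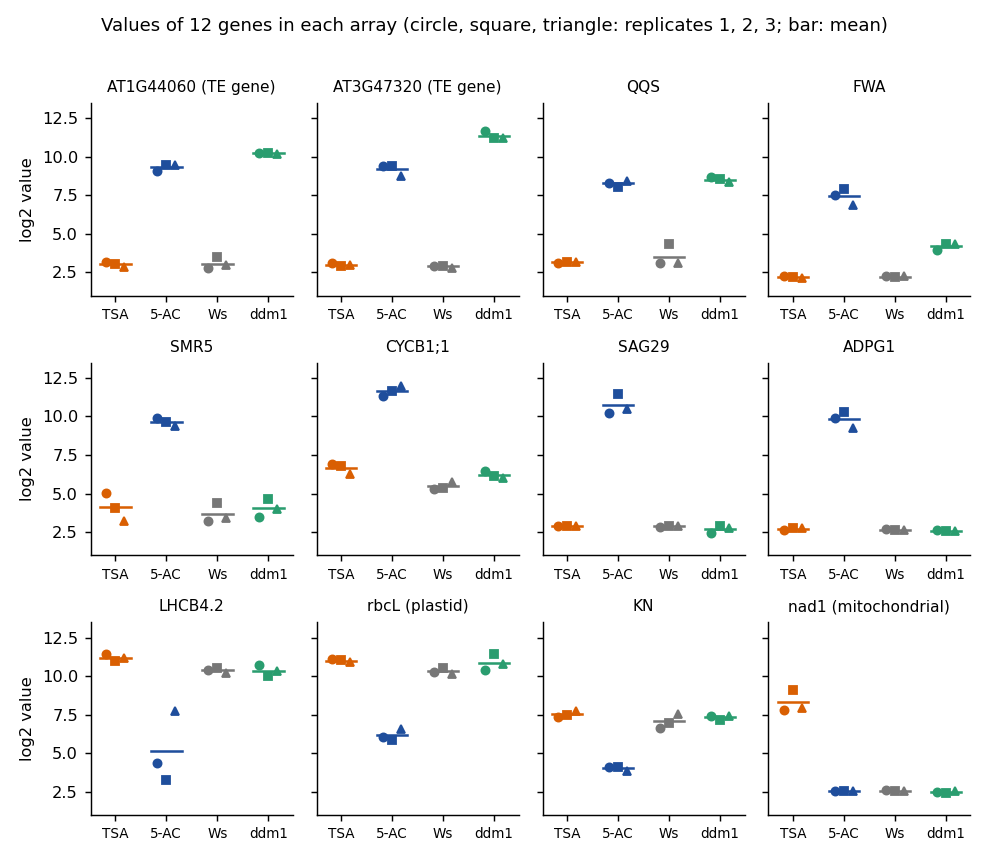
Log2 values (vertical axis) of 12 genes in all 12 arrays, by group, with replicates 1, 2 and 3 as circle, square and triangle and the group mean as a bar. For the first 8 genes the 5-AC arrays stand above TSA and Ws, for LHCB4.2, rbcL and KN they stand below, and for nad1 the TSA arrays alone are high.

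The named DNA damage genes were higher after 5-AC. Of the 21 listed genes that plants induce on DNA damage, 14 had a named probe set, and all 14 were higher after 5-AC (21.7% of all probe sets), with a median difference of -3.35 and every 5-AC array above every TSA array (24.0% of all probe sets). Only MND1, a meiotic recombination gene, was named by the platform. It read 3.73, 3.59 and 3.54 after TSA and 7.19, 6.55 and 7.44 after 5-AC (-3.44, SE 0.19, limma adjusted p = 1.5e-06). The other 13 are study-listed, that is, named because they changed on these 5-AC arrays or in ddm1, and the 7 listed genes without a named probe set could not be counted, so the 14 of 14 is no independent count.

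Among these, the cell cycle inhibitors and repair genes stood out by size. SMR5, an inhibitor of cyclin-dependent kinases, read 5.05, 4.09 and 3.21 after TSA and 9.93, 9.67 and 9.35 after 5-AC (-5.53). Its relative SMR4 differed by -3.74. CYCB1;1, a mitotic cyclin that accumulates when damaged cells wait in G2, read 6.91, 6.80 and 6.29 against 11.33, 11.65 and 11.95 (-4.97). BRCA1, a homologous recombination gene, read 4.77, 3.75 and 3.03 against 9.02, 8.24 and 8.64 (-4.78). In each of these genes the lowest 5-AC array lay more than 3 log2 above the highest TSA array. The poly(ADP-ribose) polymerase PARP2 (-3.42), the replication protein A subunit RPA1E (-3.48), the recombination gene XRI1 (-3.29) and the ribonucleotide reductase genes TSO2 (-3.02) and RNR1 (-1.97) ran the same way.

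A few damage genes were above the untreated level after TSA as well. CYCB1;1 exceeded Ws by 1.19 after TSA (limma adjusted p = 0.0093). NAC103, a transcription factor gene, read 3.86, 4.21 and 3.02 after TSA, 5.47, 5.68 and 6.0 after 5-AC and 2.55 on average in Ws, and its TSA mean was called above Ws (adjusted p = 0.027). GMI1, a gene induced by gamma irradiation, read 6.50, 6.75 and 5.82 after TSA, 7.38, 7.41 and 8.04 after 5-AC and 4.79 in Ws. Its difference between the drugs, -1.25, was the smallest of the list and was no longer called without TSA replicate 3 (-0.98, limma adjusted p = 0.065) or without 5-AC replicate 3 (-1.03, 0.061).

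Repair genes outside that list divided. The study-listed meiotic genes MSH4 (-2.14) and DMC1 (-1.83) were higher after 5-AC. DMC1 was also above Ws after TSA, with 4.75, 4.21 and 4.44 against a Ws mean of 3.11 (limma adjusted p = 0.012). The platform-named ligase LIG4 (-0.22) and helicase RECQ4A (0.04) were not called, although RECQ4A was with the arrays centred on the 3 reference genes (0.23, adjusted p = 0.025), and 5 of the 17 listed genes had a named probe set.

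Salicylic acid and defence genes were higher after 5-AC in 13 of the 17 probe sets listed (16 genes of 28), beside 21.7% of all probe sets, none was higher after TSA, and the median difference was -3.04. Of these 17, 16 are study-listed, so their direction is not independent. SAG101, a partner of the defence regulator EDS1 and the only member named by the platform, read 6.32, 6.30 and 5.15 after TSA and 8.09, 7.30 and 7.66 after 5-AC (-1.76, SE 0.32, limma adjusted p = 0.0019). The study-listed glucanase genes BG3 and PR2 gave the widest gaps. BG3 read 3.99, 3.24 and 3.02 against 11.33, 11.52 and 11.34 (-7.98). PR2 read 7.22, 7.05 and 3.07 against 12.74, 12.29 and 11.42 (-6.37). PR5, a thaumatin-like defence protein gene, differed by -5.75, NIMIN1, which encodes a protein that binds the salicylic acid receptor NPR1, by -4.67, and FMO1, needed for systemic resistance, by -4.13.

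The TSA arrays disagreed among themselves over these genes. TSA replicate 3 was the lowest TSA array in 17 of 17 probe sets, and in PBS3, an enzyme of salicylic acid synthesis, it read 2.79 beside 7.35 and 8.20 in replicates 1 and 2, against 10.42, 9.80 and 9.07 after 5-AC (-3.65, limma adjusted p = 0.03). WRKY40 read 5.59, 9.51 and 3.16 after TSA and 9.25, 10.13 and 7.77 after 5-AC, so that the groups overlapped (-2.96, adjusted p = 0.11). ICS1, the main isochorismate synthase of salicylic acid synthesis, read 8.53, 8.70 and 6.62 against 9.77, 8.72 and 9.29 (-1.31, adjusted p = 0.064), and its TSA mean was called above Ws (adjusted p = 0.023). EDS1 (-0.97, adjusted p = 0.11) and CBP60G (-1.76, adjusted p = 0.075) were the other members not called. Without TSA replicate 2 the calls numbered 16 of 17, with ICS1 (-1.69, adjusted p = 0.032), CBP60G (-2.40, 0.021) and WRKY40 (-4.68, 0.0029) among them, and without 5-AC replicate 1 they numbered 9. PBS3 was not called without 5-AC replicate 1 (-3.32, adjusted p = 0.089) or replicate 2 (-3.63, 0.073).

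**Figure D3:**
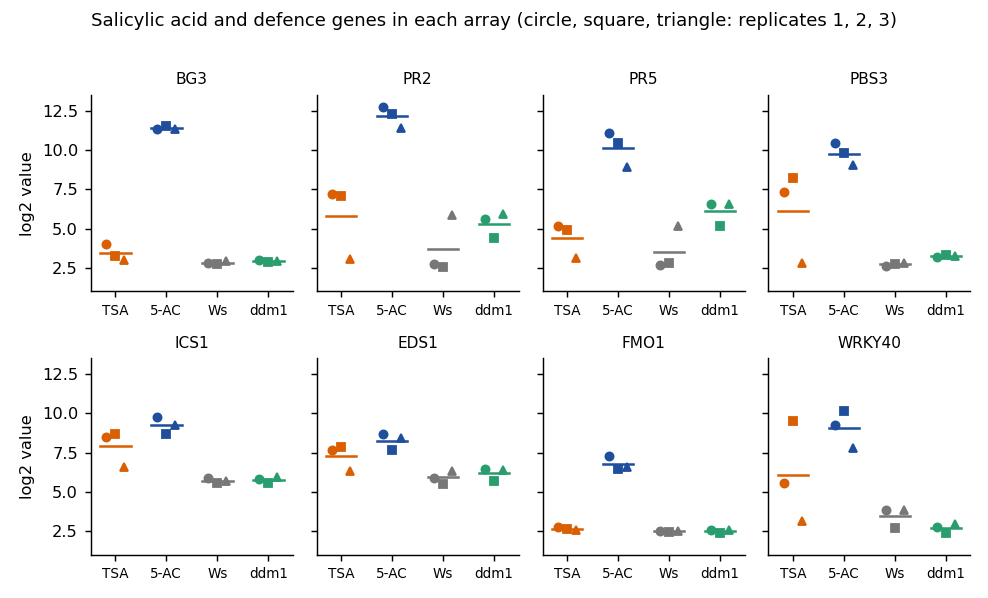
Log2 values (vertical axis) of 8 salicylic acid and defence genes in all 12 arrays, with replicates 1, 2 and 3 as circle, square and triangle and the group mean as a bar. TSA replicate 3 is the lowest TSA array in each panel, and in EDS1 and WRKY40 the values of both groups overlap.

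Several senescence genes were also higher after 5-AC. SAG29, a sugar transporter gene of ageing leaves, read 2.89, 2.92 and 2.89 after TSA and 10.22, 11.45 and 10.48 after 5-AC (-7.82, SE 0.26, limma adjusted p = 9e-08), and its means in Ws and ddm1 were 2.87 and 2.70. The study-listed DIN2, a glucosidase gene induced in the dark, read 2.62, 2.65 and 2.53 against 10.61, 10.95 and 10.32 (-8.03). Its Ws mean was 5.51, so TSA lay below Ws (adjusted p = 0.0011). SAG13 (-5.85), SAG12 (-3.81), a protease gene used as a marker of developmental senescence, and PAO (-1.42), which opens the ring of chlorophyll breakdown products, were also higher after 5-AC. The regulators WRKY53 (-1.64, adjusted p = 0.16) and WRKY6 (-1.42, 0.097) were not called, and both were called without TSA replicate 2 (-2.46, 0.032 and -2.07, 0.012). In all, 5 of the 7 probe sets of the list were higher after 5-AC (21.7% of all probe sets) and none after TSA. Of its 16 genes, 7 had a named probe set.

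After SAG29, the platform-named genes of largest difference that were not transposable elements were taken after their values were seen. ADPG1, a polygalacturonase that cuts pectin where organs separate, read 2.66, 2.73 and 2.74 after TSA and 9.91, 10.28 and 9.27 after 5-AC (-7.11, SE 0.20, limma adjusted p = 3.2e-08). A second polygalacturonase gene, AT5G14650, read 2.81, 2.1 and 2.51 against 7.96, 9.16 and 9.09 (-6.26). AT2G18720, a GTPase of the translation factor family, read 2.03 in every TSA array and 8.0, 8.28 and 8.04 after 5-AC (-6.08). Ws and ddm1 lay at the TSA level in all 3 genes, between 2.0 and 3.02. GAT1_2.1, a glutamine amidotransferase gene, differed by -6.07 in one probe set and by -1.12 in another, which lost its call without 5 of the 6 arrays in turn (-1.13 to -0.66, adjusted p = 0.06 to 0.084).

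On the TSA side, the leading platform-named genes were high in untreated seedlings too and low after 5-AC. AT2G10940, a lipid transfer protein family gene, read 9.49, 9.91 and 11.16 after TSA and 2.73, 3.06 and 4.72 after 5-AC (6.69, SE 0.54, limma adjusted p = 1.6e-05), a 103-fold difference, with a Ws mean of 9.44. AT5G48490, of the same family, read 9.17, 9.54 and 8.99 against 2.76, 2.75 and 3.44 (6.25). The neighbouring jacalin lectin genes AT1G52060 (6.35) and AT1G52050 (5.59) read 2.88 or less in all 5-AC arrays, and their Ws means of 9.49 and 8.16 lay within or just above the range of the TSA arrays. AT3G16670 (6.55), the lipase family gene AT3G16370 (5.96), AT1G21500 (5.70), AT5G50335 (5.65) and the osmotin-like AT2G28790 (5.60) complete these genes together with LHCB4.2.

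AT5G50335 and AT1G21500 lay above the untreated level after TSA. AT5G50335 read 9.5, 9.52 and 9.03 after TSA, 3.36, 3.08 and 4.67 after 5-AC and 6.41 on average in Ws, and TSA was called above Ws (limma adjusted p = 0.0054). AT1G21500 read 9.24, 8.86 and 9.24 against 3.0, 3.13 and 4.1, with a Ws mean of 7.92 (adjusted p = 0.047). For the other 8 of the 10 genes the difference between TSA and Ws was not called.

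Nuclear photosynthesis genes were higher after TSA in 11 of 12 probe sets (17.9% of all probe sets), with a median difference of 3.19, and none was higher after 5-AC. 12 of the 44 listed genes had a named probe set, 9 of them named by the platform. LHCB4.2, an antenna protein of photosystem II, read 11.43, 11 and 11.15 after TSA and 4.33, 3.25 and 7.75 after 5-AC (6.09, SE 0.92, limma adjusted p = 0.00061), with 10.37 in Ws. The Calvin cycle kinase PRK read 11.94, 11.98 and 11.82 against 7.56, 7.23 and 9.08 (3.96), and the photosystem I subunit PSAN read 12.36, 12.24 and 12.27 against 7.89, 7.62 and 9.66 (3.90). The TSA arrays of these genes varied by less than 0.5 log2, while the 5-AC arrays spread over 1.8 log2 or more.

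The remaining members gave the same picture. LHCB4.1 (3.22), PSAE1 (3.17), SBPASE (2.32), the Rubisco activase RCA (2.18) and the ATP synthase subunit ATPC1 (2.07) were higher after TSA, as were the study-listed LHCB2.4 (6.99), GAPB (3.41) and PETC (2.23). LHCB4.3 (0.58, limma adjusted p = 0.29) was not called. 5-AC replicate 3 was the highest 5-AC array in 12 of 12 of these probe sets. It is also the array with the higher values of PAP85, M17 and M10, and the part of that in the spread was not tested. Chlorophyll synthesis genes went the same way in 4 of 4 probe sets (17.9% of all probe sets). PORB, which reduces protochlorophyllide in the light, read 10.37, 10.84 and 11.01 after TSA and 5.42, 5.33 and 7.52 after 5-AC (4.65), and the methyltransferase CHLM differed by 2.76. The study-listed HEMA1 (2.79) and CHLD (1.98), which act early in the pathway, were also called above Ws after TSA, by 1.18 and 0.91 (adjusted p = 0.0056 and 0.016).

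The genes of the plastid genome were as one-sided. Of 69 plastid-encoded probe sets, 68 were higher after TSA (17.9% of all probe sets), none was higher after 5-AC, and the median difference was 2.47. The TSA arrays lay above all 5-AC arrays in 67 of them (30.5% of all probe sets). Array by array, the median level over the 69 probe sets was 10.24, 10.43 and 10.52 after TSA, 7.78, 7.32 and 8.38 after 5-AC and 9.87 to 10.36 in Ws. The medians of the 69 differences from Ws were 0.15 for TSA and -2.29 for 5-AC. The Rubisco large subunit gene rbcL read 11.08, 11.04 and 10.92 after TSA and 6.07, 5.84 and 6.58 after 5-AC (4.85, SE 0.27, limma adjusted p = 1.6e-06), a 28.8-fold difference. The single probe set not called, psaJ, read 12.43, 12.48 and 12.94 against 12.10, 11.74 and 12.46 (0.52, adjusted p = 0.059). With the replicate numbers as a block it was called (adjusted p = 0.029), as it was without 5-AC replicate 3 (0.70, 0.014).

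Every functional class of the plastid genome took part. By median difference, the subunits of the NADH dehydrogenase-like complex (ndh, 10 of 10 called) came first at 3.24, led by ndhK (4.52) and ndhA (4.41). Ribosomal protein genes (15 of 15, median 2.83), the plastid RNA polymerase genes (rpo, 4 of 4, 2.52), photosystem II (psb, 15 of 15, 2.47) and the cytochrome b6f complex (pet, 6 of 6, 2.31) followed. Photosystem I (psa, 4 of 5, 1.91, with psaA at 4.0), ATP synthase (atp, 6 of 6, 1.80) and the other plastid genes (8 of 8, 1.7) had lower medians, and no test compared the classes. The smallest called difference was that of the ribosomal protein gene rps4 (0.66), with 13.72, 13.73 and 13.75 against 13.12, 12.80 and 13.28. For ndhD (1.09) the groups overlapped, since 5-AC replicate 3 read 11.35 like TSA replicate 2, and its call was lost without any of the other 5 arrays in turn (0.77 to 1.2, adjusted p = 0.051 to 0.12). The nuclear sigma factor genes, whose products guide the plastid RNA polymerase, were study-listed and higher after TSA in 4 of 4: SIG4 (3.26), SIG1 (2.83), SIG6 (1.56) and SIG2 (1.27). RPOTMP, an organelle RNA polymerase gene, was not called (-0.46, adjusted p = 0.08), except without 5-AC replicate 1 (-0.70, 0.0015).

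**Figure D4:**
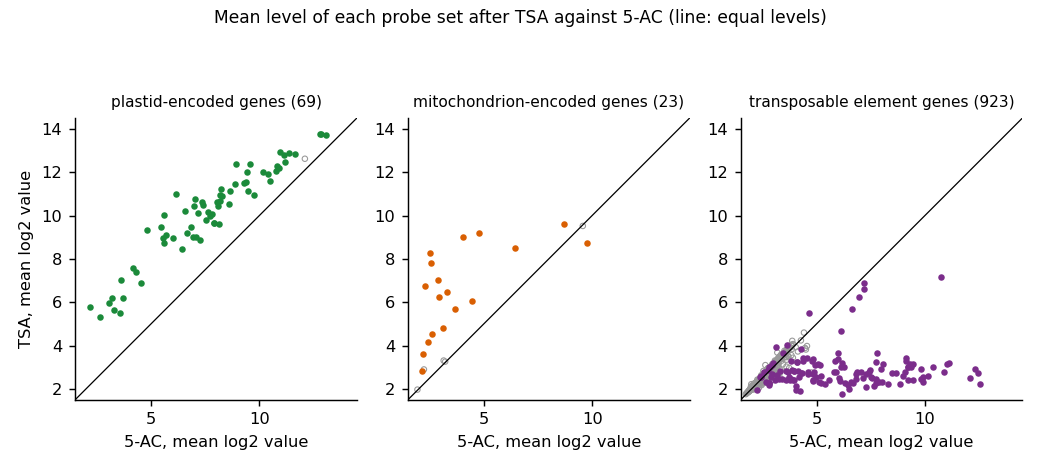
Mean log2 value after TSA (vertical axis) against 5-AC (horizontal axis) for plastid-encoded, mitochondrion-encoded and transposable element probe sets, with the line of equal levels. Filled points were called: 68 of 69 plastid points lie above the line, 17 of 23 mitochondrial points lie above it and 1 below, and 124 transposable element points lie below it.

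Mitochondrion-encoded genes were also higher after TSA, in 17 of 23 probe sets (17.9% of all probe sets) with a median difference of 1.72. Here, however, the TSA seedlings were the ones away from the untreated level. The median over the 23 probe sets was 6.27, 6.92 and 5.62 in the TSA arrays, 3.13, 3.08 and 3.08 in the 5-AC arrays and 2.97 to 3.17 in the Ws arrays. The medians of the 23 differences from Ws were 1.80 for TSA and 0.01 for 5-AC. One probe set of nad1, a subunit gene of respiratory complex I, read 7.83, 9.13 and 7.92 after TSA, 2.53, 2.57 and 2.52 after 5-AC and 2.56 on average in Ws (5.75, SE 0.28, limma adjusted p = 7.8e-07). Its 7 probe sets differed among themselves, from 0.03 to 5.75.

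Other respiratory genes were raised in the same arrays. The probe sets of nad5 read 8.96, 9.39 and 8.66 after TSA and 4.65, 4.1 and 3.44 after 5-AC in one case (4.94), and differed by 4.45 in the other. ccb452, a cytochrome c maturation gene, differed by 4.42, nad9 by 4.14 and the cytochrome oxidase gene cox2 by 2.04, and all 3 were called above Ws after TSA. The difference of nad4 was smaller, with 9.56, 9.54 and 9.73 against 8.87, 8.80 and 8.49 (0.89). ccb382 was the single member higher after 5-AC, with 8.82, 8.71 and 8.62 against 9.59, 9.61 and 10.06 (-1.03, limma adjusted p = 0.013). cox1 was not called (-0.05, adjusted p = 0.77), and its sign changed with the setting. TSA replicate 2 was the highest TSA array in 17 of the 23 probe sets.

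Arabidopsis chromosome 2 carries a large insertion of mitochondrial DNA, and the array cannot tell its transcripts from those of the organelle where the sequences match. The array annotation pairs 11 probe sets with both a chromosome 2 locus and a mitochondrial gene, and all 11 were higher after TSA, by 1.59 to 4.01 with a median of 3.18. A locus range, AT2G07673 to AT2G07777, was also chosen after values were seen. Its platform-named probe sets outside the transposable element class numbered 28. Of these, 17 were higher after TSA (17.9% of all probe sets) and none after 5-AC. AT2G07722 (4.23) and AT2G07741 (3.99) were the highest of these, and the lowest difference was -0.11. Which of the copies these probe sets report cannot be told apart.

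Genes of cell division were called in both directions. Of 11 named probe sets for mitosis and cytokinesis, 9 were higher after TSA (17.9% of all probe sets) and 1 was higher after 5-AC (21.7%). TOPII, the topoisomerase that untangles chromosomes, read 5.20, 4.83 and 5.24 after TSA and 2.32, 2.35 and 2.50 after 5-AC (2.70, SE 0.16, limma adjusted p = 2.2e-06). The mitotic kinase AUR1 read 6.05, 5.80 and 5.88 against 3.19, 3.31 and 3.26 (2.65), and AUR2 differed by 0.97, a call that was lost without any array but 5-AC replicate 3 (0.74 to 1.05, adjusted p = 0.069 to 0.16). KN, the syntaxin of the growing cell plate, is study-listed and read 7.33, 7.47 and 7.73 against 4.1, 4.12 and 3.82 (3.49), and the study-listed kinesin HIK (2.78) and cyclin CYCA1;1 (2.36) ran likewise. TSA values of these genes lay near their Ws means, 5.24 for TOPII, 5.55 for AUR1 and 7.05 for KN.

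CENH3, the centromeric histone, was the exception, with 2.46, 2.32 and 3.44 after TSA and 3.22, 4.18 and 4.17 after 5-AC (-1.12). Its arrays overlapped, and the call was lost without TSA replicate 1 (-0.98, limma adjusted p = 0.07), TSA replicate 2 (-0.91, 0.075), 5-AC replicate 2 (-0.96, 0.075) or 5-AC replicate 3 (-0.96, 0.069). AUR3 was not called (-0.18). In the DNA replication list, 5 of 7 probe sets were higher after 5-AC (21.7% of all probe sets) and 2 were higher after TSA (17.9%). ICU2, the catalytic subunit of DNA polymerase alpha, read 3.67, 4.37 and 4.40 against 5.47, 6.14 and 6.17 (-1.78), and the flap endonuclease FEN1 differed by -1.16. The study-listed ORC6 (-2.53), the thymidine kinase TK1A (-2.26) and the licensing factor CDC6 (-2.14) ran with them. MCM7, a subunit of the replicative helicase (0.82), and the study-listed CDC45 (0.90) were higher after TSA.

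Histone genes and chromatin enzymes showed smaller differences. Of 9 histone probe sets, 5 were higher after TSA (17.9% of all probe sets) and 4 were not called. The linker histone gene H1.2 read 10.54, 9.98 and 10.32 after TSA and 8.39, 7.83 and 8.83 after 5-AC (1.93, SE 0.23, limma adjusted p = 0.00015), and the H2B genes HTB2 (1.46) and HTB1 (1.34) and the study-listed H2A genes HTA6 (1.82) and HTA7 (1.28) followed. Among the genes of the drug target of TSA and the opposing enzymes, HDA15, a histone deacetylase, read 6.49, 6.17 and 6.14 against 6.73, 6.92 and 7.16 (-0.67, adjusted p = 0.0027). The study-listed deacetylase HDA14 read 7.78, 7.6 and 7.18 against 4.98, 4.93 and 4.23 (2.80), with a Ws mean of 7.26 at the TSA level. The acetyltransferases HAM2 (-1.24) and HAG1 (-0.98) and the deacetylase HDT3 (-0.76), all study-listed, were higher after 5-AC. In all, 4 of 7 probe sets were higher after 5-AC (21.7% of all probe sets) and 1 was higher after TSA (17.9%).

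Of the DNA methylation and silencing machinery, 4 of 8 probe sets were higher after 5-AC (21.7% of all probe sets), all study-listed. MET1, the maintenance methyltransferase, read 6.04, 6.09 and 6.27 after TSA and 7.21, 7.62 and 7.98 after 5-AC (-1.47, SE 0.19, limma adjusted p = 0.00024). DDM1 read 5.22, 5.25 and 5.51 against 7.04, 7.53 and 7.26 (-1.95), the histone methyltransferase SUVH4 differed by -1.97 and NRPD1, the large subunit of RNA polymerase IV, by -1.24. SUVH4 was also above Ws after TSA (adjusted p = 0.039). ROS1, a demethylase gene whose level follows methylation of its own promoter, read 2.2, 2.27 and 2.71 after TSA and 2.19, 2.07 and 2.08 after 5-AC, both below the Ws mean of 3.61, and the drugs did not differ by the test (0.28, adjusted p = 0.16), although ROS1 was called with the arrays centred on the 3 reference genes (0.47, adjusted p = 0.027). The 3 probe sets of the demethylase DME differed by 0.36, 0.16 and -0.36, and the first of these was called, though not without 5 of the 6 arrays in turn (0.27 to 0.36, adjusted p = 0.067 to 0.11). The third was called without TSA replicate 3 (-0.48, 0.014).

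**Figure D5:**
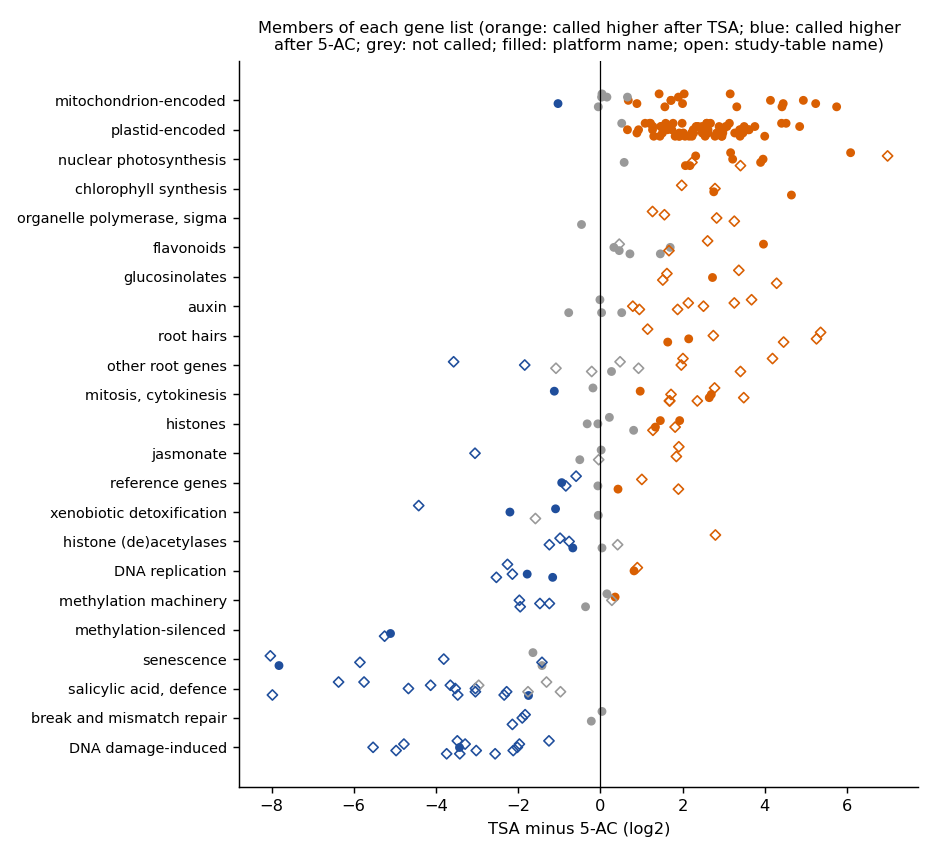
Difference between TSA and 5-AC (horizontal axis, TSA minus 5-AC, log2) of each named probe set in 23 gene lists and genome classes. Orange points were called higher after TSA, blue points higher after 5-AC and grey points were not called, and open symbols are study-listed genes. Plastid, photosynthesis, chlorophyll and root hair genes lie to the right of 0 and DNA damage-induced genes to the left.

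Root hair genes were higher after TSA, at levels below Ws, while other root genes divided. All 7 root hair probe sets were called higher after TSA (17.9% of all probe sets), for 7 of the 20 listed genes, and 5 of them are study-listed. EXPA18, a wall-loosening expansin, read 4.56, 4.52 and 4.56 after TSA and 2.27, 2.57 and 2.35 after 5-AC (2.15, SE 0.41, limma adjusted p = 0.0022), and EXPA7 differed by 1.64. RHS13 read 9.10, 8.47 and 8.29 against 2.64, 2.59 and 4.55 (5.36), PRP3, a structural wall protein, differed by 5.26 and RHS19 by 4.46. RHD6, which starts root hair growth, had the smallest difference (1.15), was not called with the replicate numbers as a block (adjusted p = 0.063), and lost its call without TSA replicate 2 (1.14, 0.078) or 3 (0.85, 0.12) and without 5-AC replicate 2 (1.18, 0.072) or 3 (0.88, 0.11). For all 7 genes the TSA mean lay under the Ws mean, although none of the 7 differences from Ws was called.

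Of 11 other root probe sets, 4 were higher after TSA (17.9% of all probe sets) and 2 were higher after 5-AC (21.7%). The Casparian strip genes CASP1 (4.19), ESB1 (3.41) and CASP2 (1.97) and the phosphate exporter PHO1 (2.01) made up the first group. CASP1 read 7.74, 7.24 and 7.54 after TSA, 2.37, 3.46 and 4.15 after 5-AC and 9.14 in Ws. The nitrate transporter NRT2.1 read 3.38, 3.76 and 2.74 after TSA and 6.13, 6.79 and 7.67 after 5-AC (-3.57), with 2.71 in Ws. THAS1, the first enzyme of thalianol synthesis, was low after both drugs, with 3.57, 2.49 and 4.40 against 5.04, 5.60 and 5.34 (-1.84) and 8.65 in Ws. PYK10, the root glucosidase and the one member named by the platform, was not called (0.27).

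Several jasmonate genes averaged below the untreated level after both drugs. PDF1.2, a defensin, read 6.29, 5.47 and 4.6 after TSA and 6.24, 5.68 and 5.94 after 5-AC, against 11.98 in Ws (-0.50, limma adjusted p = 0.5). MYC2, the central transcription factor of the pathway, did not differ by the test either (-0.04, adjusted p = 0.94). The synthesis gene AOS read 6.85, 7.10 and 7.0 against 4.91, 5.39 and 5.11 (1.85), both under its Ws mean of 9.66. JAZ9, a repressor of the pathway, was called at 1.91 but lost the call without TSA replicate 1 (1.85, adjusted p = 0.055), TSA replicate 3 (1.82, 0.059) or 5-AC replicate 3 (1.67, 0.065). JAZ10, another repressor, ran the other way, with 2.68, 2.81 and 3.09 against 5.92, 6.61 and 5.20 (-3.05). In all, 2 of 6 probe sets were higher after TSA (17.9% of all probe sets) and 1 was higher after 5-AC (21.7%).

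Glucosinolate and flavonoid genes of the lists were higher after TSA wherever they were called. BCAT4, which starts the chain elongation of methionine for glucosinolates, read 8.5, 8.30 and 9.34 after TSA and 5.67, 6.05 and 6.29 after 5-AC (2.71, SE 0.29, limma adjusted p = 7.4e-05), and was called above Ws after TSA (adjusted p = 0.016). The study-listed regulator MYB28 read 7.62, 7.33 and 7.70 against 2.53, 3.01 and 4.25 (4.29), and CYP79B3 (3.37) and SUR1 (1.62) were also higher. MYB34 (1.52, adjusted p = 0.036) was not called with the replicate numbers as a block (adjusted p = 0.059), nor without TSA replicate 1 (adjusted p = 0.094) or 3 (0.11), nor without any one of the 5-AC arrays (0.07 to 0.083). Of 9 flavonoid probe sets 3 were higher after TSA (17.9% of all probe sets) and none after 5-AC (21.7%). DFR, which makes anthocyanin precursors, read 9.15, 10.12 and 7.08 against 4.85, 5.53 and 4.07 (3.97, adjusted p = 0.013), and the study-listed F3H (2.61) and EGL3 (1.67) were the others. The spread of DFR among TSA arrays, over 3 log2, was wide.

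Auxin genes named by the platform (4) were not called, while all 7 study-listed ones were higher after TSA (17.9% of all probe sets). PIN4, an auxin exporter, read 6.43, 5.79 and 7.09 after TSA and 2.23, 2.57 and 3.48 after 5-AC (3.68), IAA3 and IAA28, repressors of the response, differed by 3.26 and 2.51 and the exporter PIN2 by 2.14. Xenobiotic genes were higher after 5-AC in 3 of 5 probe sets (21.7% of all probe sets), with UGT73B5 (-2.2), UGT73B4 (-1.09) and the study-listed CYP710A1 (-4.42). CYP81D8, a cytochrome P450 gene used as a marker of chemical stress, was high after both drugs, with 8.26, 7.91 and 7.02 after TSA, 10.62, 7.72 and 9.58 after 5-AC and 3.66 in Ws. It was not called between them (-1.58, limma adjusted p = 0.12), though it was without 5-AC replicate 2 (-2.37, 0.014).

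Heat shock, clock and floral genes gave single values. ROF2, a heat-induced cochaperone, was higher after TSA (1.23, limma adjusted p = 0.022), a call lost without TSA replicate 2 (1.15, adjusted p = 0.066) or 3 (1.24, 0.054) and without 5-AC replicate 1 (1.22, 0.057) or 2 (1.14, 0.069). The study-listed small heat shock gene HSP17.4 read 2.55, 2.65 and 4.2 after TSA and 6.86, 6.93 and 7.40 after 5-AC (-3.93). The clock gene GI did not differ by the test (0.23, adjusted p = 0.68). SEP3, a MADS-box gene of floral organs, is study-listed and read 2.51, 2.53 and 2.54 against 7.68, 7.92 and 7.73 (-5.25), and the floral organ gene AG differed by -1.31. AGL15, a MADS-box gene of embryos, read 3.78, 4.07 and 3.19 against 5.40, 5.72 and 5.69 (-1.92).

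Some families of platform-named genes held calls in both directions. Of 48 UDP-glycosyltransferase (UGT) probe sets, 9 were higher after TSA (18.8%, near the 17.9% of all probe sets), with UGT72E1 at 2.90, and 10 were higher after 5-AC (20.8%, near 21.7%), with UGT76B1, which glycosylates an immune signal, at -2.83. Among 14 expansin probe sets 6 were higher after TSA and 1 after 5-AC. EXPA8 read 9.03, 8.37 and 8.37 against 3.18, 3.12 and 4.78 (4.9), while EXPB2 read 2.45, 2.41 and 2.70 against 5.86, 6.35 and 6.30 (-3.65). For the beta-glucosidases (BGLU, 20 probe sets) 2 were higher after TSA, BGLU33 at 3.31 among them, and 6 were higher after 5-AC, led by BGLU45 at -4.68. Of the 14 sugar transporter probe sets that carry a SWEET symbol, 4 were higher after TSA and 1, SWEET4, was higher after 5-AC (-2.89). The sugar transporter gene SAG29 (-7.82), named otherwise here and given above, lay outside that count.

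In other families the counts of platform-named members were less even, and none was tested as a family. The trichome birefringence-like (TBL) genes, which acetylate wall polysaccharides, were higher after TSA in 7 of 22 probe sets and never higher after 5-AC, with TBL45 at 3.90, and xyloglucan-modifying XTH genes in 5 of 9, with XTH16 at 2.52, against 1 higher after 5-AC. A study-listed member, XTH11, lay outside that count and read 2.38, 2.58 and 2.32 after TSA and 10.18, 10.28 and 8.29 after 5-AC (-7.16). The ubiquitin-specific proteases (UBP) were higher after 5-AC in 7 of 12, among them UBP26, which removes ubiquitin from histone H2B (-1.81), and 1 was higher after TSA. The bZIP factors were higher after 5-AC in 6 of 14 and after TSA in 1. AGAMOUS-like MADS-box genes were mostly not called, with 2 in each direction of 42 and AGL24, a promoter of flowering, at -2.59. These named members were taken by size among the platform-named members of their families, and XTH11 beside them, after the values were seen.

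In a smaller group of genes the TSA seedlings departed farther from Ws than the 5-AC seedlings did. There were 8757 called probe sets whose arrays did not overlap. In 685 of these, TSA lay farther from the Ws mean than 5-AC did and was itself called against Ws. Of the 685, TSA was above Ws in 439 and below in 246, and no condition was set on 5-AC against Ws. The examples were chosen after values were seen. GSTU20, a glutathione transferase gene, read 9.24, 9.70 and 9.94 after TSA and 4.71, 4.87 and 5.05 after 5-AC, with Ws between them at 6.77 (4.75, SE 0.40, limma adjusted p = 1.8e-05). Its 5-AC mean was also called, below Ws (-1.89, limma adjusted p = 0.0038). AT1G72060 (2.70) and the papain family protease AT1G29090 (1.32) were above both 5-AC and Ws after TSA. On the other side, the study-listed latex protein gene MLP328 averaged 4.53 after TSA, 8.88 after 5-AC and 12.03 in Ws (-4.35). The cytochrome P450 gene CYP81F4 of indole glucosinolate modification (-2.88), AT4G14060 (-1.65), AT1G23130 (-2.12) and AT5G38020 (-2.90) were likewise lowest after TSA.

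Reference genes themselves differed between the drugs. SAND read 7.48, 7.6 and 7.67 after TSA and 7.57, 7.53 and 7.82 after 5-AC (-0.06, limma adjusted p = 0.61), and its sign turned to 0.13 when the arrays were centred on SAND, UBC21 and TIP41L. UBC21 was higher after TSA (0.43) and TIP41L, with 6.11, 6.08 and 6.08 against 6.88, 7.19 and 7.02, was higher after 5-AC (-0.94). Of the study-listed ones, ACT2 (1.01) and TUA4 (1.90) were higher after TSA, and ACT7 (-0.84) and GAPC1 (-0.59) were higher after 5-AC, although GAPC1 was not called after that centring (-0.40, adjusted p = 0.052).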

How the data were processed

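Transcript levels were measured on Affymetrix ATH1 arrays, 12 in all, 3 in each of 4 groups taken from the treatment and genotype labels. The log2 values were deposited by the authors, who processed the scans with GCRMA, which corrects background by probe sequence, normalizes the arrays to each other and summarises each probe set. Differences between groups in total RNA are therefore removed, folds near the floor depend on the background model, and array medians lay at 4.92 to 4.98. The present calls used in the study were not used here (the small number of arrays sets the precision).

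The table held 22810 rows, of which 64 control probe sets were left out. For the other 22746, a linear model with the 4 groups as terms was fitted to all 12 arrays and the contrast TSA minus 5-AC was tested, two-sided, by moderated statistics (limma 3.58.1, R 4.3.3), with Benjamini-Hochberg adjustment over all probe sets and a threshold of 0.05. The test was tested on simulated data. Of the 13513 probe sets that the platform annotation pairs with 1 gene, 13436 matched a RefSeq gene. Another 503 carried several genes, 1711 were named only through the study's lists and 7019 were unnamed. Transposable element genes are those that RefSeq types as pseudogenes, apart from the transcribed pseudogenes, so the class may also hold pseudogenes that are not elements. The members, the 25 gene lists and the 17 families were chosen with earlier results of these data known, and lists are described by counts and medians beside all probe sets. Genes were named by rule: the 10 highest and the 10 lowest differences among called, platform-named probe sets whose arrays did not overlap, the largest members of each list, any member against its majority, and genes that the study discusses. Genes named outside the rule are marked as such in the text.

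Same-numbered TSA and 5-AC arrays deviated together (correlations of deviations from the group means 0.12, 0.13 and 0.18 for numbers 1, 2 and 3, against -0.25 to 0.18 for arrays of different numbers, the highest of these for TSA replicate 2 with 5-AC replicate 1), so the replicate number was also fitted as a block. The other alternatives were 2 filters on low values, the 6 drug arrays alone, centring on 3 reference genes, limma with trend and robust, the methods' t-test, single-sequence probe sets, limma treat against 1 log2, and leaving out each drug array in turn. No array sequence, coordinate or promoter was analysed here. Some list members are counted but not reported here by name.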

Additional observations from a re-analysis of the deposited data

How the results depend on the processing

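With each drug array left out in turn, the number of probe sets higher after TSA ranged from 3585 to 3991 and higher after 5-AC from 4396 to 4911, plastid-encoded genes higher after TSA from 67 to 69, mitochondrion-encoded ones from 17 to 18, and transposable element genes higher after 5-AC from 110 to 135 and higher after TSA from 5 to 61. Fitted with the replicate numbers as a block, 4195 probe sets were higher after TSA and 5082 higher after 5-AC, 8704 of the 9018 calls were kept, and among the named genes the pairing changed the calls of MYB34, RHD6 and psaJ and no other. Centring on the 3 reference genes, which carries the differences of TIP41L and UBC21 into every probe set, gave 9903 probe sets higher after TSA and 587 transposable element genes higher after TSA. The methods' t-test after Benjamini-Hochberg adjustment called 1178 probe sets higher after TSA and 1267 higher after 5-AC (7909 at an unadjusted p under 0.05), with 33 plastid-encoded and 7 mitochondrion-encoded genes higher after TSA and 3 transposable element genes higher after TSA and 75 higher after 5-AC. Tested against 1 log2 with limma treat, 1281 were higher after TSA and 1069 higher after 5-AC, with 9 mitochondrion-encoded genes, no transposable element gene (0) higher after TSA and 82 higher after 5-AC. The 13 transposable element genes higher after TSA numbered 3 with either filter on low values and 5 with the 6 drug arrays alone, and 76 with trend and robust. Single-sequence probe sets left 44 higher after 5-AC. Signs turned only for genes that were not called. Centring gave 0.13 for SAND, 0.14 for cox1, 0.15 for MYC2 and 0.01 for AUR3, and over the leave-outs SAND ranged from -0.11 to 0.03, cox1 from -0.14 to 0.01, MYC2 from -0.29 to 0.18, GI from -0.05 to 0.38, the second DME probe set from -0.01 to 0.26, PAP85 from -1.24 to 0.11, M17 from -1.41 to 0.03 and M10 from -0.33 to 0.01. Of 215 named probe sets, 186 were called, 86 of them in every setting in which they were tested, and 0 called ones changed sign. Values near the floor, where 4191 probe sets lay in both groups, limit what could be detected.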
